A study of Homo sapiens with 42 samples.

Results

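SYCP2, SMC1B, STAG3, MEI1, TAF7L, RNF212, ZNF541 and TCAM1P, 8 genes that belong to the germline, were followed in lines of squamous cell carcinoma of the head and neck (HNSCC) that carry human papillomavirus (HPV) and in lines that do not. These are 8 of the 19775 genes measured by array probe sets annotated to a single gene. They were taken by name, with earlier results of these data known. They have 13 such probe sets among them, and each gene was read by its brightest probe set, judged by the mean of all 42 arrays. All values are log2 levels, so that 1 unit is a doubling of signal, and, since each probe set has its own scale, differences are read between lines for a given gene.

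The study hybridised RNA from 8 cell lines to Affymetrix arrays, with 3 arrays in each of 14 conditions. SCC047, SCC090 and 93VU147T are HPV-positive HNSCC lines, and SCC25, SQ20B and SCC61 are HPV-negative HNSCC lines. Each of these 6 lines was measured after 24 h with 100 nM cetuximab, an antibody against the epidermal growth factor receptor, and as a control, called untreated here. The study's text speaks of both a PBS control and untreated cells for these lines. HaCaT, a spontaneously immortalised skin keratinocyte line without HPV, was measured untreated only, and SCC1, an HPV-negative HNSCC line, with cetuximab only. HPV status comes from the study's text, not from the sample labels, and each status stands on a handful of clonal lines that differ in other lesions: 93VU147T has an HRAS mutation outside the known hotspots, SQ20B an EGFR amplification and SCC61 a PIK3CA mutation. Nothing in the labels says that the 3 arrays of a condition came from separate cultures, so tests over arrays measure only the spread between these arrays.

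In meiosis, sister chromatids are held by a cohesin ring with germline subunits, chromosomes align along a protein axis that becomes the synaptonemal complex, and programmed breaks are repaired as crossovers. SMC1B and STAG3 are subunits of meiotic cohesin, SYCP2 is a part of the chromosome axis, MEI1 is needed for the programmed breaks in mice, and RNF212 stabilises crossover precursors in mice. TAF7L is the germ cell paralog of TAF7 in the general transcription factor TFIID, ZNF541 is a zinc finger protein of spermatocytes known from mice, and TCAM1P is the human pseudogene of a mouse testicular cell adhesion gene. In somatic cells many such genes are kept silent by DNA methylation and by a repressor complex that contains E2F6 and its partner MGA and binds E2F-type sites. The HPV oncoprotein E7 inactivates the RB proteins, which restrain the activating E2F factors.

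In the RefSeq annotation (GRCh38.p14) the members are scattered over the genome: SYCP2 at chr20:59863571-59933637, SMC1B at chr22:45344063-45413599, STAG3 at chr7:100177724-100219334, MEI1 at chr22:41699503-41799454, TAF7L at chrX:101268257-101293083, RNF212 at chr4:1056251-1113710, ZNF541 at chr19:47520690-47573309 and TCAM1P, annotated as a transcribed pseudogene, at chr17:63857016-63864379. Promoter sequence is shown first. The RefSeq promoter windows (GRCh38.p14), which run from 250 bases before to 50 bases after a transcript start, covered 7 of the 8 members in 9 windows. TCAM1P had no window. The E2F-type site GCGGGAA, searched on both strands, was found in 6 of these 7 genes (SYCP2, SMC1B, STAG3, MEI1, TAF7L and ZNF541) and not in the window of RNF212. Across all genes with a window it was found in 7.82% of 27305. The E-box CACGTG was found in STAG3 alone among the 7, against 8.77% of all genes, and the CRE TGACGTCA in none, against 2.25%. The 3 motifs do not overlap each other in these windows. A match is a description of the letters and does not show that a factor binds. How often these motifs are found in windows of other germline genes was not tested.

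The 250 bases before the start are printed 5′ to 3′ on the gene's strand for 4 members with the E2F-type site, SYCP2, SMC1B, STAG3 (the downstream of its 2 windows) and MEI1. They are also printed for RNF212, whose window lacks the exact letters GCGGGAA and TTCCCGC. Only exact matches were searched, so near matches to the site were not counted. Capitals mark GCGGGAA, its reverse complement TTCCCGC or CACGTG. In MEI1 the site spans the start, so 253 bases are shown.
SYCP2 (chr20:59933638-59933887, minus strand): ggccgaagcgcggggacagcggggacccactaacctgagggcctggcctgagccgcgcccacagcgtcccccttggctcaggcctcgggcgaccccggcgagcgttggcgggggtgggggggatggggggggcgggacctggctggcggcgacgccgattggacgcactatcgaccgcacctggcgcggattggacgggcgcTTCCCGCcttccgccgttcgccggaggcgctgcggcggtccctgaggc
SMC1B (chr22:45413600-45413849, minus strand): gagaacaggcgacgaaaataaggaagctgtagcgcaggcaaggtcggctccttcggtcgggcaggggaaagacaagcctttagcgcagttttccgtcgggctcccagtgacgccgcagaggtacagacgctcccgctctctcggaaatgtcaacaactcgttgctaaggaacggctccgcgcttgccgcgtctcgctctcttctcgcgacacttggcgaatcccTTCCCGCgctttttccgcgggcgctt
STAG3 (chr7:100177668-100177917, plus strand): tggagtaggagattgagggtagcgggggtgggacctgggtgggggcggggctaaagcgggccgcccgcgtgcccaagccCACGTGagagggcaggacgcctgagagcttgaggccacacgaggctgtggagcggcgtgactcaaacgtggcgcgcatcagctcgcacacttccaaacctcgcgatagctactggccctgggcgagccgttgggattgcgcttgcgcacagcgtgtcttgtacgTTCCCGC
MEI1 (chr22:41699253-41699505, plus strand): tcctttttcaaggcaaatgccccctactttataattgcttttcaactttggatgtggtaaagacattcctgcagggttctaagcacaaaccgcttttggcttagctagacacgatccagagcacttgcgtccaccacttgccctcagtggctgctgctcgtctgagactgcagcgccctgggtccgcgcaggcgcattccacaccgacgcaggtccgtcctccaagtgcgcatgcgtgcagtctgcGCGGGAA
RNF212 (chr4:1113565-1113814, minus strand): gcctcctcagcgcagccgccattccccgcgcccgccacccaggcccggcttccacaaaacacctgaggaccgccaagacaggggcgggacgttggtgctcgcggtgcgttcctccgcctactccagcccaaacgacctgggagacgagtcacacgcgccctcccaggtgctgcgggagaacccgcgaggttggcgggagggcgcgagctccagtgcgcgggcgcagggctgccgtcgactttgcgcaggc

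The site began 48 bases before the start in SYCP2, 26 in SMC1B, 7 in STAG3 and 4 in MEI1, while it lay farther out in TAF7L (140 bases) and ZNF541 (189 bases). CpG dinucleotides numbered 41 in the 300-base window of SYCP2, 34 in SMC1B, 34 in RNF212 and 49 in ZNF541, but 17 in MEI1, against a median of 14 over all 35116 windows. How often the E2F-type site is found in windows of like CpG count was not tested. TAF7L has a window rich in CpG (44) at one start and one poor in CpG (9) at the other.

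The untreated lines split by HPV status for SYCP2, TCAM1P and RNF212. SYCP2 read 6.95, 6.50 and 6.74 in SCC047, 8.14, 7.95 and 8.31 in SCC090, and 7.68, 7.56 and 8.14 in 93VU147T. The 15 HPV-negative arrays (SCC25, SQ20B, SCC61, HaCaT and treated SCC1) lay between 3.01 and 3.88, with a median of 3.39. All 9 HPV-positive arrays were thus above all 15 HPV-negative arrays, with a gap of 2.62 between the nearest. Of the HPV-positive lines SCC047 was the lowest, by 1.41 against SCC090 and by 1.06 against 93VU147T (limma, adjusted p = 1.93e-10 and 9.78e-08). The arrays of SCC090 and 93VU147T overlapped, although their difference of -0.34 (93VU147T minus SCC090) passed the test (adjusted p = 0.0369).

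TCAM1P read 6.94, 6.77 and 6.64 in SCC047, 7.67, 7.86 and 8.0 in SCC090, and 7.82, 7.75 and 7.88 in 93VU147T, against 3.12 to 3.35 on the 15 HPV-negative arrays (median 3.23). Its HPV-negative lines were alike, with line means from 3.19 to 3.31. SCC090 and 93VU147T overlapped, with means of 7.84 ± 0.16 and 7.82 ± 0.07 (SD, n = 3 each), and SCC047 lay lower, at 6.78 ± 0.15 (by 1.06 against SCC090, limma adjusted p = 7.84e-12).

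RNF212 read 8.20, 8.06 and 8.09 in SCC047, 8.33, 8.47 and 8.36 in SCC090, and 8.79, 8.84 and 8.84 in 93VU147T. The 15 HPV-negative arrays lay between 5.64 and 5.99, with a median of 5.81. The order among the HPV-positive lines was 93VU147T, SCC090, SCC047, without overlap of their arrays, and each step passed the test (0.44 and 0.27, limma adjusted p = 2.10e-07 and 0.000284).

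**Figure D1:**
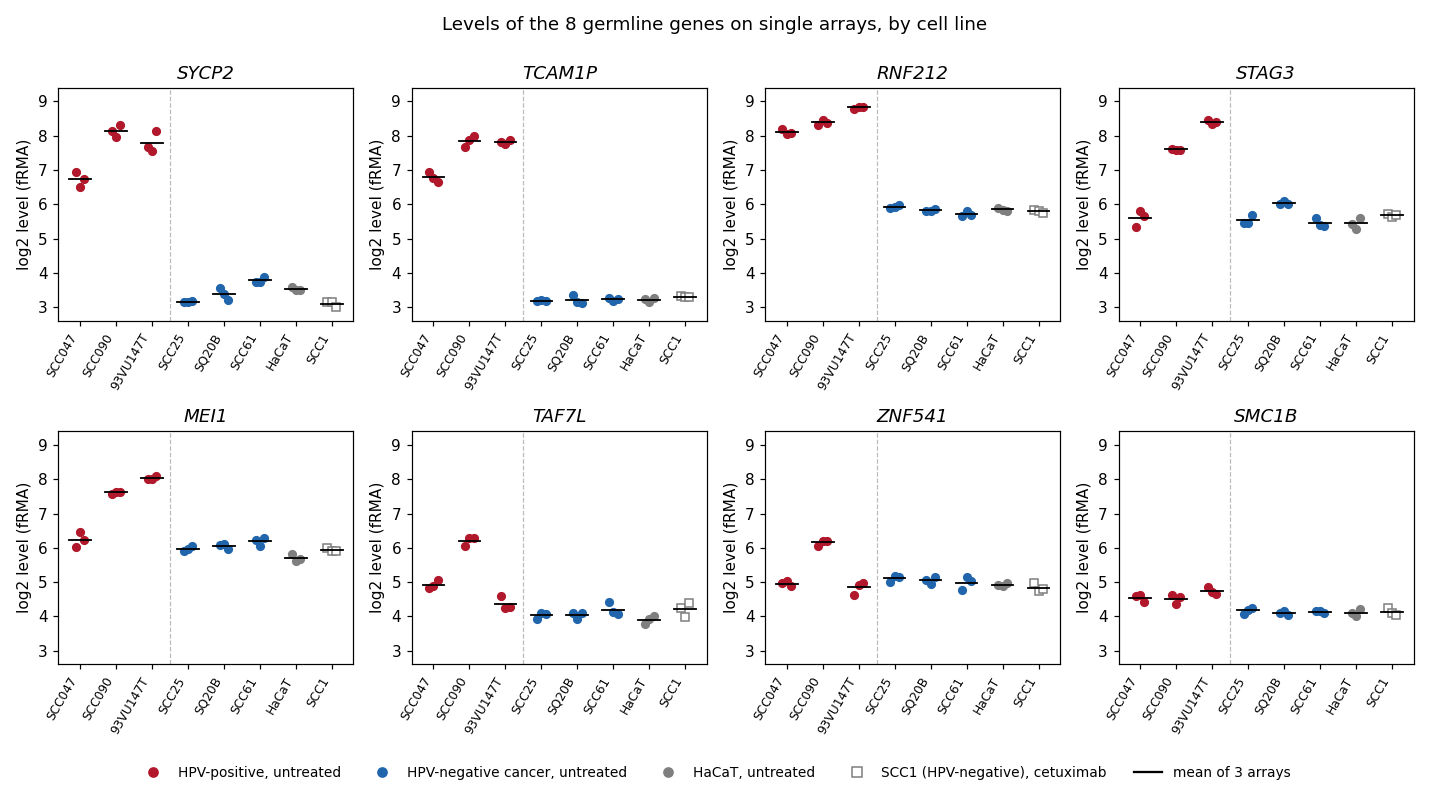
Log2 level of each of the 8 genes on single arrays (points) with the mean of 3 arrays (bars), by cell line. Red points are untreated HPV-positive lines, blue points untreated HPV-negative cancer lines, grey points untreated HaCaT, and open squares SCC1 with cetuximab. SYCP2, TCAM1P and RNF212 are high in all 3 HPV-positive lines, STAG3 and MEI1 in SCC090 and 93VU147T, and ZNF541 in SCC090.

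STAG3 and MEI1 were high in SCC090 and 93VU147T, and not in SCC047. STAG3 read 7.63, 7.59 and 7.59 in SCC090 and 8.46, 8.34 and 8.41 in 93VU147T, while SCC047 read 5.33, 5.81 and 5.64. The 15 HPV-negative arrays lay between 5.27 and 6.09, with a median of 5.61, so that SCC047 fell inside their range. Against the mean of the 3 untreated HPV-negative cancer lines STAG3 was 6.62-fold higher in 93VU147T and 3.81-fold higher in SCC090, and the difference in SCC047 was -0.08 ± 0.07 (SE, limma adjusted p = 0.370).

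MEI1 followed the same order of lines. It read 7.99, 8.01 and 8.11 in 93VU147T and 7.58, 7.64 and 7.64 in SCC090, against 6.02, 6.46 and 6.22 in SCC047 and 5.62 to 6.28 on the HPV-negative arrays. It was 3.91-fold higher in 93VU147T and 2.93-fold higher in SCC090 than in the HPV-negative cancer lines, and differed by 0.16 ± 0.08 in SCC047 (SE, limma adjusted p = 0.0874). Over the 14 condition means STAG3 and MEI1 had a Pearson r of 0.970.

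TAF7L and ZNF541 had their peak in SCC090. TAF7L read 6.04, 6.28 and 6.29 in SCC090, 4.83, 4.87 and 5.05 in SCC047, and 4.61, 4.23 and 4.28 in 93VU147T, against 3.77 to 4.40 on the 15 HPV-negative arrays (median 4.07). Its level in SCC090 was 4.32-fold and in SCC047 1.78-fold above the HPV-negative cancer lines. The arrays of 93VU147T overlapped the HPV-negative ones, although its difference of 0.28 ± 0.09 passed the test over arrays (SE, limma adjusted p = 0.00965).

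ZNF541 read 6.06, 6.20 and 6.21 in SCC090, 2.16-fold above the HPV-negative cancer lines, and 4.96, 5.02 and 4.88 in SCC047. In 93VU147T it read 4.63, 4.92 and 4.98, which was below the HPV-negative cancer lines by a small amount (difference -0.20 ± 0.08, SE, limma adjusted p = 0.0419). The HPV-negative arrays lay between 4.73 and 5.19, so that both of these lines overlapped them.

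SMC1B showed a small step in every HPV-positive line. It read 4.60, 4.61 and 4.42 in SCC047, 4.63, 4.35 and 4.55 in SCC090, and 4.86, 4.72 and 4.64 in 93VU147T, against 4.00 to 4.25 on the 15 HPV-negative arrays. The nearest arrays of the 2 sides were 0.10 apart. The folds over the HPV-negative cancer lines were 1.33 in SCC047, 1.30 in SCC090 and 1.52 in 93VU147T.

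Read line by line against the untreated HPV-negative cancer lines, all 8 members were higher in SCC090, 7 were higher and 1 lower in 93VU147T, and 5 were higher in SCC047 (limma on arrays, adjusted p under 0.05). Of all genes, 62.5% passed in SCC090 (29.7% higher and 32.7% lower), 54% in 93VU147T (29.9% higher and 24.1% lower) and 53.6% in SCC047 (29.9% higher and 23.7% lower). The median difference of the members was 2.02 in SCC090, 2.35 in 93VU147T and 0.62 in SCC047, against -0.06, 0.04 and 0.03 over all genes. SYCP2, TCAM1P, RNF212, SMC1B and TAF7L were thus higher in every HPV-positive line, SMC1B by a small step throughout and TAF7L by a small step in 93VU147T. STAG3 and MEI1 were higher in SCC090 and 93VU147T and ZNF541 in SCC090, so that the label of these genes as switched on in HPV-positive cancer did not hold for them in every line.

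Among the HPV-positive lines themselves, SCC090 was above SCC047 in 7 of 8 members and below in 0, while 59.5% of all genes passed (27.1% higher and 32.4% lower). 93VU147T was above SCC047 in 5 members and below in TAF7L, with 46.2% of all genes passing (23% higher and 23.2% lower). Against SCC090, 93VU147T was above in STAG3, MEI1, RNF212 and SMC1B and below in TAF7L, ZNF541 and SYCP2, with 60.3% of all genes passing (33.5% higher and 26.8% lower).

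When the cell line rather than the array was the replicate, no member passed the threshold. In limma on 3 against 3 line means, 0 of 8 members had an adjusted p under 0.05, against 0.0152% of all genes (3 of 19775, 0.00506% higher and 0.0101% lower), and 5 of 8 had an unadjusted p under 0.05. The genes that passed were MRC2 (higher) with DNER and TFPI (lower). TCAM1P was 19.3-fold higher in HPV-positive lines (log2 difference 4.27 ± 0.31, SE, adjusted p = 0.0813), SYCP2 17.3-fold (4.11 ± 0.41, adjusted p = 0.156) and RNF212 6.16-fold (2.62 ± 0.20, adjusted p = 0.0813). In the HPV-negative lines TCAM1P and SYCP2 lay below the median of 24 genes of other tissues that are unlikely to be expressed here (4.29 to 4.73 per array), so that their folds are of array signal and may be lower bounds.

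The other 5 members were far from the threshold at this number of lines. STAG3 differed by 1.52 ± 0.75, MEI1 by 1.23 ± 0.48, TAF7L by 1.07 ± 0.48, SMC1B by 0.46 ± 0.10 and ZNF541 by 0.27 ± 0.37 (SE, adjusted p from 0.364 to 0.914). Single lines moved some of these values: without SCC090 TAF7L differed by 0.55 and ZNF541 by -0.15, without SCC047 STAG3 differed by 2.33 and ZNF541 by 0.46, and without 93VU147T STAG3 differed by 0.92 and ZNF541 by 0.51. The members' median was 1.38, against 0.01 over all genes, and 4.18% of all genes were higher by 1 unit or more. All arrays of this comparison but 1 SQ20B control lay in a single scan batch. Without that array SYCP2, TCAM1P and RNF212 differed by 4.08, 4.26 and 2.63, and 0 members passed.

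**Figure D2:**
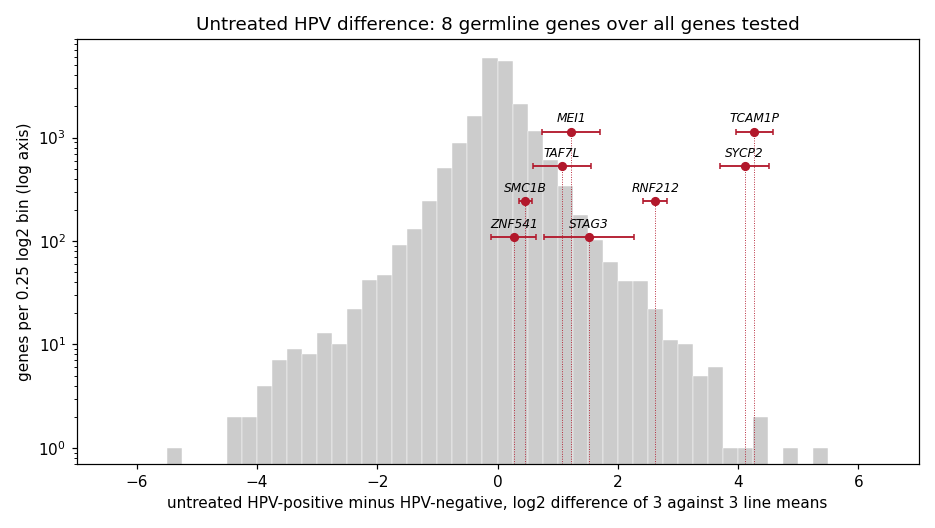
Number of genes per bin of the untreated HPV-positive minus HPV-negative log2 difference (grey, log axis), over all 19775 genes, with the 8 germline genes in red at their difference and its limma standard error. The height of a red point only separates the names. TCAM1P (4.27), SYCP2 (4.11) and RNF212 (2.62) lie in the right tail, and ZNF541 (0.27) and SMC1B (0.46) lie in the body.

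HaCaT and treated SCC1 extended the HPV-negative side to 5 lines. For 6 of the 8 members, all but STAG3 and ZNF541, the 3 HPV-positive line means were above all 5 HPV-negative line means, which held for 2.46% of all genes. For MEI1 the nearest line means were close, at 6.23 in SCC047 and 6.18 in SCC61, and its dimmer probe sets did not separate the lines in this way. For SYCP2, TCAM1P, RNF212 and SMC1B the 9 HPV-positive arrays were above all 15 HPV-negative arrays, which held for 0.86% of all genes. The gap of SMC1B was 0.10, smaller than the shift of the HPV difference when arrays were centred on a common median (-0.14). SMC1B read 4.00 to 4.86 on these arrays, near the median of the 24 genes of other tissues (4.29 to 4.73). A filter on dim genes (log2 level 5 on 3 arrays) kept 7 members and dropped SMC1B. With both lines added to the test over lines, SYCP2 (adjusted p = 0.00838), RNF212 (0.00263) and TCAM1P (0.00263) passed, and the other 5 did not. HaCaT lay in a scan batch of its own and SCC1 was treated and shared its batch with 1 control array only, so line and batch cannot be told apart there.

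Within the HPV-negative side the members differed little. Untreated HaCaT was lower than the HPV-negative cancer lines in MEI1 (-0.36, adjusted p = 0.000113) and STAG3 (-0.24, adjusted p = 0.00642), as were 30% of all genes (27.1% were higher, 57% in all), and no member was higher (limma on arrays). Treated SCC1, against the treated HPV-negative cancer lines, was higher in SMC1B (0.21) and TCAM1P (0.16) and lower in SYCP2 (-0.31), with adjusted p from 0.0101 to 0.0484. Of all genes 53.7% passed in that comparison (32.1% higher and 21.6% lower).

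Several members have more than 1 probe set, and these did not all carry the pattern. The second probe set of SYCP2, 237920_at, stayed between 2.84 and 3.00 over the 14 conditions, whereas 206546_at, the one reported above, ranged over 5.04 units. The second probe set of RNF212, 1557031_at, ranged over 0.45 units, against 3.22 for 236454_at. The HPV difference of these second probe sets was 0.09 for SYCP2 and 0.16 for RNF212. In contrast all 3 probe sets of MEI1 had a higher mean over the HPV-positive lines, by 1.23, 1.42 and 0.95, and both of TAF7L, by 1.07 and 0.78. The dimmer MEI1 probe sets, 230011_at and 1564621_a_at, were not higher in every HPV-positive line. In untreated SCC047 they read 5.05 and 4.39, not above the 5.53 and 4.40 of untreated SCC61. SMC1B, STAG3, ZNF541 and TCAM1P rest on a single probe set each, and which transcripts the flat probe sets read was not tested.

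**Figure D3:**
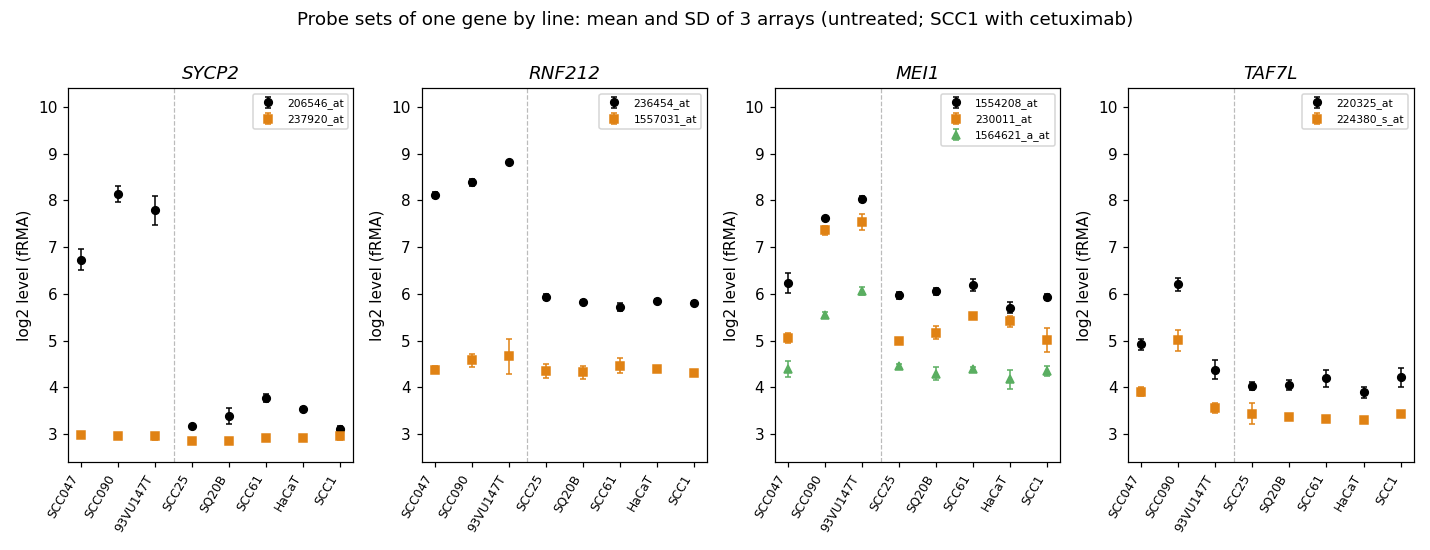
Log2 level by line for each probe set of the 4 members with more than 1, as the mean and SD of 3 arrays (untreated, SCC1 with cetuximab). For SYCP2 and RNF212 the brighter probe set separates the 3 HPV-positive lines on the left and the dimmer one is flat, with ranges of 0.16 and 0.45 units over the 14 conditions, whereas the probe sets of MEI1 and of TAF7L move together.

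The deposited values carry no detection call. On the same arrays 24 genes of liver, retina, pancreas and other tissues, taken as unlikely to be expressed here, had a median between 4.29 and 4.73 per array and a 90% quantile between 5.75 and 6.42. Since each probe set has its own background, no member was called present or absent from its level, and in RNA of whole cultures a share of expressing cells cannot be told apart from RNA per cell. Of the squamous epithelial markers, SFN lay between 12.79 and 13.61 and PERP between 11.22 and 12.84 in the 8 lines, and KRT5 lay between 10.59 and 13.31, while KRT14 was low in SCC090 (5.77), 93VU147T (7.05) and SQ20B (4.85). DSC3 was low in SCC1 (3.77), against 8.51 to 10.24 in the other lines. Against the HPV-negative cancer lines, 4, 5 and 0 of the 9 measured markers were higher in SCC047, SCC090 and 93VU147T (limma on arrays). In the same lines 2, 4 and 6 were lower. Of all genes, 29.9%, 29.7% and 29.9% were higher in these lines and 23.7%, 32.7% and 24.1% lower. The leukocyte gene PTPRC stayed between 3.87 and 4.30, while LAPTM5 and CD14 varied between lines (5.28 to 7.51 and 4.44 to 7.87) and neither separated the lines by HPV status. Of the 6 leukocyte markers measured, 3, 0 and 4 were higher and 0, 4 and 0 lower in SCC047, SCC090 and 93VU147T (limma on arrays). Of 8 fibroblast markers none passed over lines (median difference -0.21), a test that 3 of 19775 genes passed. In limma on arrays 0, 0 and 1 of these markers were higher and 4, 6 and 2 lower in SCC047, SCC090 and 93VU147T. Single ones varied by line, with LUM at 7.54 in SCC25, FAP at 6.48 in SCC61 and COL3A1 at 6.59 in 93VU147T.

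The other germline lists had median HPV differences near that of all genes. Since the 8 members were chosen with earlier results of these data known, their higher median is no test against these lists. For 28 other meiotic genes the median was 0.05, against 0.01 over all genes, and none passed over lines (lowest adjusted p = 0.459), a test that none of the 8 members passed either. Line by line, against the HPV-negative cancer lines, 7 of the 28 were higher in SCC047, 11 in SCC090 and 7 in 93VU147T (limma on arrays), where 29.9%, 29.7% and 29.9% of all genes were, and 4, 3 and 2 were lower, where 23.7%, 32.7% and 24.1% of all genes were. Of the 28, 19 stayed within 1 unit over the 8 lines, among them SYCP1, the transverse filament of the synaptonemal complex (3.56 to 3.73), SYCP3, the axis partner of SYCP2 (3.39 to 3.81), and SPO11, the enzyme that makes the breaks (3.17 to 3.36). These 3 lay below the median of the 24 genes of other tissues in every line. For 3 of the 28 the HPV-positive lines were above all 5 HPV-negative lines, against 2.46% of all genes.

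Some meiotic genes varied strongly by line, and these are named after their values were seen. SYCE2, of the central element of the synaptonemal complex, was at 7.32, 6.50 and 8.0 in SCC047, SCC090 and 93VU147T, and at 6.11 or below in the 5 HPV-negative lines. REC8, the meiotic kleisin that works with SMC1B and STAG3, reached 9.98 in SCC090 against 6.27 to 6.96 in the other lines. TEX15 likewise peaked in SCC090 (5.55, against 4.10 to 4.32 in the other lines). MAJIN was higher in the same lines as STAG3 and MEI1, at 5.70 in SCC090 and 6.39 in 93VU147T, against 5.03 to 5.13 in the rest. HORMAD1, an axis protein, was high in SCC047 (9.65) and in the HPV-negative SCC25 (8.93) and SCC61 (8.14), and low in SCC090 (3.38), and SHOC1, a crossover factor, was highest in the HPV-negative SQ20B (9.07).

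Genes of the germ cell RNA and piRNA pathway, X-linked cancer testis antigens and spermatid genes likewise had no member past the threshold over lines (0 of 19, 0 of 23 and 0 of 18 measured, lowest adjusted p = 0.577). Their median differences were -0.00, -0.07 and -0.03. Against the same per-line shares of all genes, the 19 RNA and piRNA genes were higher in 5, 4 and 2 cases and lower in 1, 5 and 1 (SCC047, SCC090 and 93VU147T), the 23 X-linked antigens higher in 0, 0 and 1 and lower in 7, 11 and 8, and the 18 spermatid genes higher in 1, 2 and 3 and lower in 2, 4 and 1. DDX4 and DAZL, the classical germ cell markers, stayed within 3.72 to 4.02 and 3.14 to 3.31. Single genes differed by more, in both directions, and are named after their values were seen. TDRD9, an RNA helicase of the piRNA pathway, was at 7.94 in SCC047 and 8.35 in SCC090, but at 3.45 in 93VU147T and between 3.30 and 3.57 in the HPV-negative lines. TDRD5 and SOHLH1 peaked in SCC090, as ZNF541 did, at 5.75 and 7.21, against 4.00 to 4.27 and 5.53 to 5.78 in the other lines. In the other direction IL13RA2, a decoy receptor for interleukin 13, was at 3.77 to 4.03 in the HPV-positive lines, against 8.16 in SCC25, 6.14 in SCC61 and 3.53 to 4.53 in the other 3 HPV-negative lines. The melanoma antigen genes MAGEB2 and MAGEA4 were at 3.28 to 3.85 in the HPV-positive lines, against 8.11 and 7.79 in SQ20B.

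**Figure D4:**
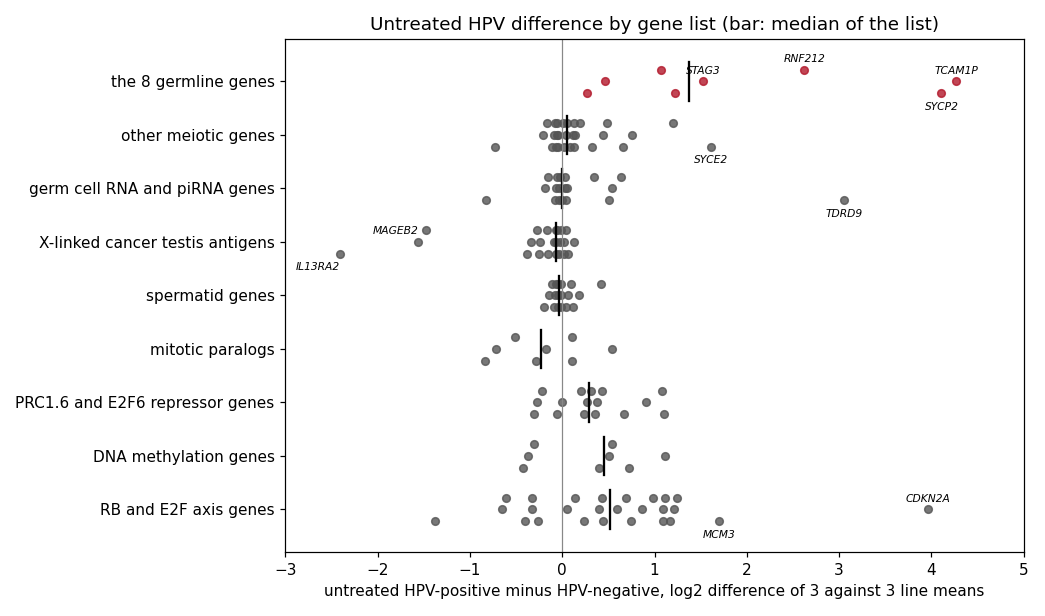
Untreated HPV-positive minus HPV-negative log2 difference of single genes (points) by gene list, with the list's median as a bar, and the 8 germline genes in red at the top. The median is 1.38 for the 8 genes, whereas those of the 4 other germline lists lie between -0.07 and 0.05. The 8 genes were chosen with earlier results of these data known, so this contrast is not a test. Genes 1.5 units or more from 0 are named.

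None of 8 genes of mitotic cohesin, its loading and TFIID passed over lines. In the test over arrays 1, 3 and 1 of the 8 were higher and 5, 2 and 4 lower in SCC047, SCC090 and 93VU147T. Of all genes, 29.9%, 29.7% and 29.9% were higher in these lines and 23.7%, 32.7% and 24.1% lower. Among the 8, SMC1A, STAG1, STAG2 and TAF7 are somatic paralogs of SMC1B, STAG3 and TAF7L. Cohesin subunits SMC1A (0.11), SMC3 (-0.84), RAD21 (0.10), STAG1 (-0.51) and STAG2 (-0.18), the cohesin loaders NIPBL (-0.72) and MAU2 (0.54) and the TFIID subunit TAF7 (-0.29) had adjusted p from 0.399 to 0.977. Their median difference was -0.23. The HPV-positive lines were above all 5 HPV-negative lines for MAU2 and below all 5 for TAF7, the paralog of TAF7L (9.76 to 10.05 in HPV-positive lines, against 10.08 to 10.53 in HPV-negative lines).

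Regulators tied to germline gene silencing were also looked up. Of 16 repressor genes around E2F6 none passed (lowest adjusted p = 0.196), and their median difference was 0.29. E2F6 itself was at 8.52, 9.25 and 8.60 in SCC047, SCC090 and 93VU147T, against 7.08 to 8.38 in the 5 HPV-negative lines, and its partner MGA was at 7.23, 8.55 and 8.03 against 6.28 to 7.44, with overlap. DNMT3A, a de novo DNA methyltransferase, was at 7.62, 8.29 and 6.90 against 6.20 to 6.90, so that the nearest lines, 93VU147T and SCC1, were level at this rounding, and DNMT1, which maintains methylation, overlapped. None of the 8 DNA methylation genes and none of the 26 RB and E2F genes passed over lines (lowest adjusted p = 0.391), with medians of 0.45 and 0.52. CDKN2A, whose product p16 is high in cells that have lost RB function, was at 11.59, 10.91 and 12.09 in the HPV-positive lines, against 5.88 to 9.95 in the 5 HPV-negative lines. The HPV-positive lines were above all 5 HPV-negative lines for 2 of the 16 repressor genes, 1 of the 8 DNA methylation genes and 2 of the 26 RB and E2F genes, against 2.46% of all genes. Line by line, against the HPV-negative cancer lines (limma on arrays), the 8 DNA methylation genes were higher in 3 cases in SCC047, 8 in SCC090 and 4 in 93VU147T, the 16 repressor genes in 8, 10 and 11, and the 26 RB and E2F genes in 14, 21 and 17, where 29.9%, 29.7% and 29.9% of all genes were. They were lower in 4, 0 and 3, in 4, 3 and 3, and in 9, 3 and 6 cases, where 23.7%, 32.7% and 24.1% of all genes were.

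The genes whose profiles over the 14 condition means were most like the mean of the standardised member profiles were LOC375196 (Pearson r = 0.994), WNK3 (0.992), INA (0.977), ABCA17P (0.974), IGFBPL1 (0.973), GATM (0.969), CNNM1 (0.967), ZYG11A (0.958), BRME1 (0.957) and IKZF3 (0.949), out of 10967 genes that ranged over 1 unit or more. These 14 means share lines and arrays with each other, so r is a description of the same few lines. BRME1 is itself a gene of meiotic recombination in mice, and it averaged 7.21 in HPV-positive and 6.0 in HPV-negative untreated lines. Taken singly, SYCP2, RNF212 and TCAM1P had ZYG11A as their nearest gene (r of 0.989, 0.996 and 0.993), MEI1 and STAG3 shared LOC105370697 (0.972 and 0.981), and PNLDC1, which trims piRNAs in mice, was also near MEI1 (0.967). TAF7L was nearest to TRIM9 (0.982), ZNF541 to SUSD4 (0.978) and SMC1B to C17orf67 (0.954). Among the members themselves, r ran from 0.283 for ZNF541 with SMC1B to 0.993 for TCAM1P with RNF212 over 28 pairs.

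The changes of the members with cetuximab were small, and their direction differed between lines. All 8 changes were below 0 in SCC090 (median -0.16, against -0.00 over all genes) and 7 of 8 in SCC61 (median -0.19, against -0.03), while the medians in the other lines lay between -0.09 and 0.08. With arrays centred on a common median, 6 of 8 were below 0 in SCC090, where RNF212 and SMC1B were at 0.01 and 0.00, and 8 of 8 in SCC61. The largest change of any member in any line was 0.50, against HPV differences of more than 4 units for SYCP2 and TCAM1P. In SCC047, TAF7L was at 5.42 ± 0.19 with cetuximab and 4.92 ± 0.12 in control (change 0.50 ± 0.11, SE, adjusted p = 0.000645), TCAM1P was at 7.07 ± 0.19 and 6.78 ± 0.15 (0.28, adjusted p = 0.016), and SMC1B fell to 4.18 ± 0.04, against 4.54 ± 0.11 in control (-0.36, adjusted p = 0.00089). These are 3 of 8 members, against 36.2% of all genes in that line (17.3% higher and 19% lower). The TAF7L change was 0.14 in its second probe set (adjusted p = 0.468), and the call of TCAM1P was lost without replicate 1 or 3 (0.05 and 0.288). SMC1B stayed between 3.80 and 4.93 over the 14 conditions, near the median of the 24 genes of other tissues (4.29 to 4.73 per array).

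In 93VU147T, 4 members fell: STAG3 to 7.94 ± 0.07, against 8.40 ± 0.06 in control (-0.46, adjusted p = 0.000113), TCAM1P to 7.40 ± 0.15, against 7.82 ± 0.07 (-0.42, adjusted p = 0.000509), MEI1 to 7.65 ± 0.10, against 8.04 ± 0.06 (-0.39, adjusted p = 0.00205), and RNF212 to 8.57 ± 0.03, against 8.82 ± 0.03 (-0.25, adjusted p = 0.00165). Of all genes 34.6% passed there, with 15.8% higher and 18.8% lower. The call of RNF212 was lost without replicate 3 (adjusted p = 0.0685) and in its second probe set (-0.12, 0.543). In SCC090 no member passed in limma, as 1.4% of all genes did (0.516% higher and 0.885% lower), and 1 of 8 had an unadjusted p under 0.05, with changes from -0.22 for STAG3 to -0.01 for RNF212.

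In the HPV-negative lines, where most members were near their lowest level, 3 of 8 fell in SCC61 (SMC1B by 0.34, SYCP2 by 0.37 and ZNF541 by 0.31, adjusted p from 0.00125 to 0.0325), against 44.1% of all genes (24.4% higher and 19.8% lower). No member passed in SCC25 or SQ20B in limma, and 0 of 8 had an unadjusted p under 0.05 in either, against 16% of all genes called in SCC25 (8.66% higher and 7.3% lower) and 33.3% in SQ20B (18.4% higher and 14.9% lower). In SCC61 the call of SYCP2 was lost without any 1 of the replicates (adjusted p from 0.0697 to 0.102), and that of ZNF541 without replicate 3 (0.209). SMC1B and SYCP2 lay below the median of the 24 genes of other tissues (4.29 to 4.73 per array) in SCC61, with and without cetuximab.

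Averaged over the 6 lines, SMC1B (-0.13), MEI1 (-0.15) and STAG3 (-0.11) were lower with cetuximab in limma on arrays (adjusted p from 0.00193 to 0.0137), and 45.9% of all genes passed (22.8% higher and 23.1% lower). The call of SMC1B was lost without replicate 1 (adjusted p = 0.0597) and that of STAG3 without replicate 2 or 3 (0.0878 and 0.177). With the line as the replicate no member passed, and none had an unadjusted p under 0.05. The change differed by HPV status for STAG3, which fell by 0.24 in HPV-positive lines and moved by 0.01 in HPV-negative lines (difference -0.25 ± 0.07, SE, adjusted p = 0.00702), and for TAF7L, with 0.18 and -0.10 (difference 0.27 ± 0.09, adjusted p = 0.0179). Of all genes 37.2% passed in that comparison (14.9% higher and 22.3% lower). The HPV-positive lines did not move alike. STAG3 changed by -0.02 in SCC047, -0.22 in SCC090 and -0.46 in 93VU147T, and TAF7L by 0.50, -0.15 and 0.19. The call of STAG3 was lost without replicate 2 or 3 (adjusted p = 0.0698 and 0.0635) and with arrays centred on a common median (0.193), that of TAF7L without replicate 1 or 2 (0.0774 and 0.0985), and with the line as the replicate neither member did (adjusted p = 0.595 and 0.66). Between pairs of HPV-positive lines the change differed in 3 of 8 members for SCC090 minus SCC047 (26.4% of all genes, 12.7% higher and 13.7% lower), in 4 for 93VU147T minus SCC047 (17.3%, 8.08% higher and 9.23% lower) and in 1 for 93VU147T minus SCC090 (23.2%, 11.8% higher and 11.3% lower).

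**Figure D5:**
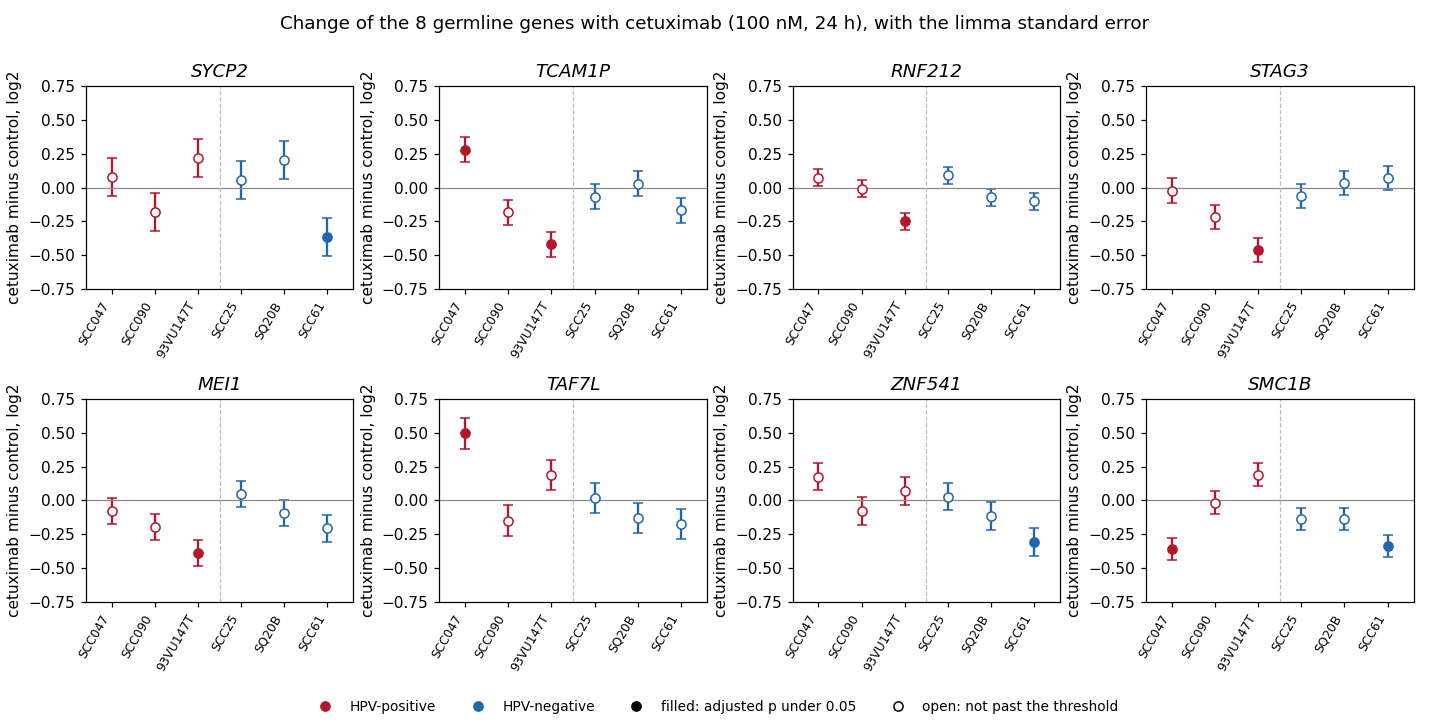
Cetuximab minus control log2 change (100 nM, 24 h) of each of the 8 genes in each of the 6 lines, with the limma standard error. Filled points have an adjusted p under 0.05. Red points are HPV-positive lines and blue points HPV-negative lines, and no change exceeds 0.50 in size.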

How the data were processed

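Total RNA (RNeasy Mini kit) was hybridised to 42 Affymetrix Human Genome U133 Plus arrays, 3 per condition. The deposited values are log2 intensities that the authors summarised and normalised with fRMA 1.16.0 (from the study's methods, which also name pSVA for batch effects; whether the deposited log2 values carry it is not stated). Of 54675 probe sets, 62 are array controls, 41091 were annotated to 1 gene, 1801 to several and 11721 to none listed here. Probe sets of 1 gene were used, the one with the highest mean per gene, which gave 19775 genes.

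HPV status was tested on the means of 6 lines, with the line as the replicate. Cetuximab changes and single lines were tested on 36 arrays with 12 group means, and HaCaT and SCC1 on all 42 arrays with 14 group means. All tests used limma 3.58.1 (R 4.3.3, two-sided), with Benjamini-Hochberg adjustment over all genes and a threshold of 0.05. The number of arrays limits the precision, and no depth applies. Scan batches held 35, 4 (SCC1 and 1 SQ20B control) and 3 arrays (HaCaT), and HaCaT replicates 1 and 2, whose labels share a sample number, differed (SD of log2 differences 0.144) by less than the pairs of other conditions (0.154 to 0.293) but more than HaCaT replicates 1 and 3 (0.128), and were kept as separate arrays. Array medians over genes ran from 6.03 to 6.33, and the 3′ minus 5′ signal of ACTB was alike on both HPV sides (0.29 to 0.35 in HPV-positive and 0.26 to 0.36 in HPV-negative lines).

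The 8 genes and the gene lists were chosen with earlier results of these data known. Named by rule were the 8 genes, list genes past the threshold, the 2 brightest genes of a list whose level is described, the genes of mitotic cohesin, its loading and TFIID, the 10 nearest profiles with 3 per member, and genes past the threshold for HPV status. All other genes named from the lists were chosen after their values were seen. RefSeq promoter windows were searched as text on both strands. The fits were tested on simulated data. Alternatives covered the choice of probe set, scaling, a filter on dim genes (log2 level 5 on 3 arrays), the moderation, batch, the replicate number, the unit of replication and each line and replicate left out.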

Additional observations from a re-analysis of the deposited data

Results flagged for a closer look

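STAG3 in SQ20B, at 6.04, stood apart from the other 3 untreated HPV-negative lines (SCC25, SCC61 and HaCaT, at 5.53, 5.45 and 5.44). Its gap took a share of 0.845 of the range of the 4 lines. Of 16 such groups tested 1 stood apart, and chance gives about 1 in 20.

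The cetuximab change of 2 members differed by HPV status in limma on arrays. Averaged over lines, it was lower on the HPV-positive side for STAG3 (difference -0.25, adjusted p = 0.00702) and higher for TAF7L (0.27, adjusted p = 0.0179). The HPV-positive lines did not move alike for either gene. The TAF7L difference was 0.04 in its second probe set (adjusted p = 0.806).

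The change also differed between HPV-positive lines. For SCC090 minus SCC047 the change differed by 0.34 in SMC1B (adjusted p = 0.0296), -0.65 in TAF7L (0.00244) and -0.46 in TCAM1P (0.00764), against 26.4% of all genes called. For 93VU147T minus SCC047 it differed by 0.55 in SMC1B (adjusted p = 0.00108), -0.44 in STAG3 (0.0132), -0.32 in RNF212 (0.00798) and -0.70 in TCAM1P (0.00022), against 17.3% of all genes. For 93VU147T minus SCC090 it differed by -0.24 in RNF212 (adjusted p = 0.0407), against 23.2% of all genes.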

How the results depend on the processing

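Of 991 values of the members under 28 settings, 912 kept their direction and side of the threshold or changed sign with neither value past it (50 of them), 52 gained the threshold, 27 lost it and 0 reversed. The genes called for HPV status (3) numbered 1 with the second brightest probe set and 1 with the mean of probe sets, 5 with the filter on dim genes, 6 with HaCaT added (6 with its replicates 1 and 2 averaged), 8 with HaCaT and SCC1, 7 on cetuximab arrays and 10 there with SCC1. They numbered 15 without SCC047, 1 without SCC61, and 0 without SCC090, 93VU147T or SQ20B (2039, 1396 and 1339 genes at an unadjusted p under 0.05). With the array as the replicate, which treats arrays of 1 line as independent, they numbered 11378, and 11376 with the replicate block.

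The members called for HPV status (0) numbered 1 with the filter and 1 with a moderation trend (TCAM1P both times), 3 with HaCaT, 3 with its replicates averaged, 3 with SCC1 as well, 2 on cetuximab arrays, 3 there with SCC1, 2 without SCC047, 8 with the array as the replicate and 8 with the replicate block. Leaving out a replicate gave 3 to 3 genes and 0 to 0 members. Without SCC090 the difference of ZNF541 was -0.15 (0.27 with all lines) and that of TAF7L 0.55 (1.07). STAG3 differed by 0.92 without 93VU147T and 2.33 without SCC047 (1.52), and ZNF541 by 0.46 without SCC047 and 0.51 without 93VU147T.

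For cetuximab, centring the arrays on a common median gave 5 members in SCC047 and 7 in SCC61 (3 each as deposited), and the mean of probe sets gave 5 in SCC61. Centring moved the HPV difference of all genes by -0.14, and the change by 0.10 in SCC047 and -0.11 in SCC61. Genes called higher and lower were then 4793 and 2405 in SCC047 (3415 and 3750 as deposited), 4182 and 2417 in 93VU147T (3129 and 3716), 2981 and 4621 in SQ20B (3631 and 2948), 3931 and 6709 in SCC61 (4819 and 3911), and 6990 and 2748 for the HPV difference of the change (2943 and 4413, and 3947 and 3681 with quantile normalization). Leaving out SQ20B control replicate 3 gave 272 genes in SCC090 and 3207 in SCC25. In SCC090 each line fitted alone gave 1 gene (277 in the joint fit). With the line as the replicate the mean change had 0 genes and 0 members, and the HPV difference of the change 0 genes and 0 members (in limma, 2404 and 1872 genes and 0 members at an unadjusted p under 0.05). That difference had 1 member with the second brightest probe set and 1 with the mean of probe sets.

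Leaving out each replicate number in turn gave 30 to 152 genes in SCC090, 1496 to 2124 in SCC25 (3156 with all), 5313 to 5749 in SCC047, 4767 to 5632 in 93VU147T, 4728 to 5108 in SQ20B, 6689 to 7675 in SCC61, 7020 to 7233 for the mean change and 5298 to 6337 for its HPV difference. Members then numbered 2 to 3 in SCC047, 3 to 4 in 93VU147T, 1 to 2 in SCC61, 2 to 2 for the mean change, 0 to 1 for its HPV difference and 0 to 0 in the other lines. Whether replicate numbers pair the samples was not settled. Of 18 pairs with the same number 7 correlated above 0.1 (r from -0.14 to 0.30), and pairs with unlike numbers were not compared. The replicate block changed no count of members for cetuximab and gave 7126, 284, 6795, 3134, 6523 and 8713 genes in SCC047, SCC090, 93VU147T, SCC25, SQ20B and SCC61, 9027 for the mean change and 7307 for its HPV difference. The cause of these shifts was not tested.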
